A study of Drosophila melanogaster with 12 samples.

Results

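The amylase and maltase genes of Drosophila melanogaster were followed in heads of flies kept on different amounts of sucrose. The set held 8 genes, picked by name from the 13760 genes of the expression table: the α-amylase genes Amy-p and Amy-d, their relative Amyrel, the maltase genes Mal-A1, Mal-A8, Mal-B1 and Mal-B2, and tobi. The set was chosen with earlier results of these data known, so its counts of calls are not those of a blind choice. Each gene was read from the transcript row with the highest mean. Of the 8, 6 had a mean of at least 10 normalized reads over the 12 libraries and were tested among the 6552 genes that reached that mean. Mal-A8 (mean 8.69) and Mal-B1 (mean 4.99) lay under it, and Mal-A1 (mean 10.2) and tobi (mean 12.05) were the nearest above it.

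Amylases cut starch and glycogen inside the chain and release maltose and short dextrins, and maltases split maltose and also sucrose into single sugars. In flies the digestive forms are made mainly in the midgut and secreted into its lumen, and amylase genes have long been known to be turned down when flies eat simple sugars. The sugar-responsive transcription factor Sugarbabe (gene sug) and the activin ligand Dawdle (gene daw) have been linked to that repression. Cabut (gene cbt) is a zinc-finger transcription factor that acts downstream of the sugar sensor Mondo.

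The samples were 12 libraries of 3' RNA-seq from heads of flies with a Canton-S strain background, which had spent 18 h with sucrose at 0, 25, 50 or 100 percent, as the labels give it. For every concentration there were 2 libraries labelled cabut RNAi (Tim-gal4, UAS-cbt RNAi), called RNAi-labelled below, and 1 labelled Control (+/cbtE1-UAS-cbt RNAi). The UAS transgene was thus shared by all groups, and Tim-gal4 drives it in cells that express the clock gene timeless. The targeted RNA itself was not lower: cbt held between 102 and 202 normalized reads in the 8 RNAi-labelled libraries, against 93.5 to 139 in the 4 controls, so genotypes are named by their labels throughout. The libraries held 511487 to 1859284 reads, fewest in the control at 100 percent sucrose, where 1 read was worth 2.24 normalized reads, against 0.50 to 1.28 in the others. All 9 photoreceptor genes looked up as markers of head tissue were above the mean of 10. No label ties libraries of a group to separate cultures or animals, and the spread behind the p-values may therefore be technical. Values are normalized reads, that is, reads multiplied by 1 factor in each library, errors on fold changes are standard errors (SE), and adjusted p-values come from limma with Benjamini-Hochberg adjustment over all genes tested, with a threshold of 0.05.

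Mal-B2, Amy-d and Amy-p gave most of the reads of the set. Mal-B2 (CG14935) averaged 308 normalized reads over the 12 libraries, Amy-d (CG17876) 264, Amy-p (CG18730) 139 and Amyrel (CG8221) 30.5. Per kilobase of exon the order of the top genes was different, with Amy-d at 164 normalized reads per kilobase, Mal-B2 at 132 and Amy-p at 83.3, but reads of a 3' library come from near the transcript end, so neither scale is a measure of molecules. The ranges over libraries overlapped between all 3, at 79.1 to 283 per kilobase for Amy-d, 83.2 to 223 for Mal-B2 and 28.9 to 197 for Amy-p. Amyrel, at 11.6 to 29.3 per kilobase, stayed below Mal-B2, Amy-d and Amy-p in every library. Only across different libraries did its highest value just pass the lowest of Amy-p. The remaining 4 members averaged between 2.75 (Mal-B1) and 5.73 (tobi) per kilobase.

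**Figure D1:**
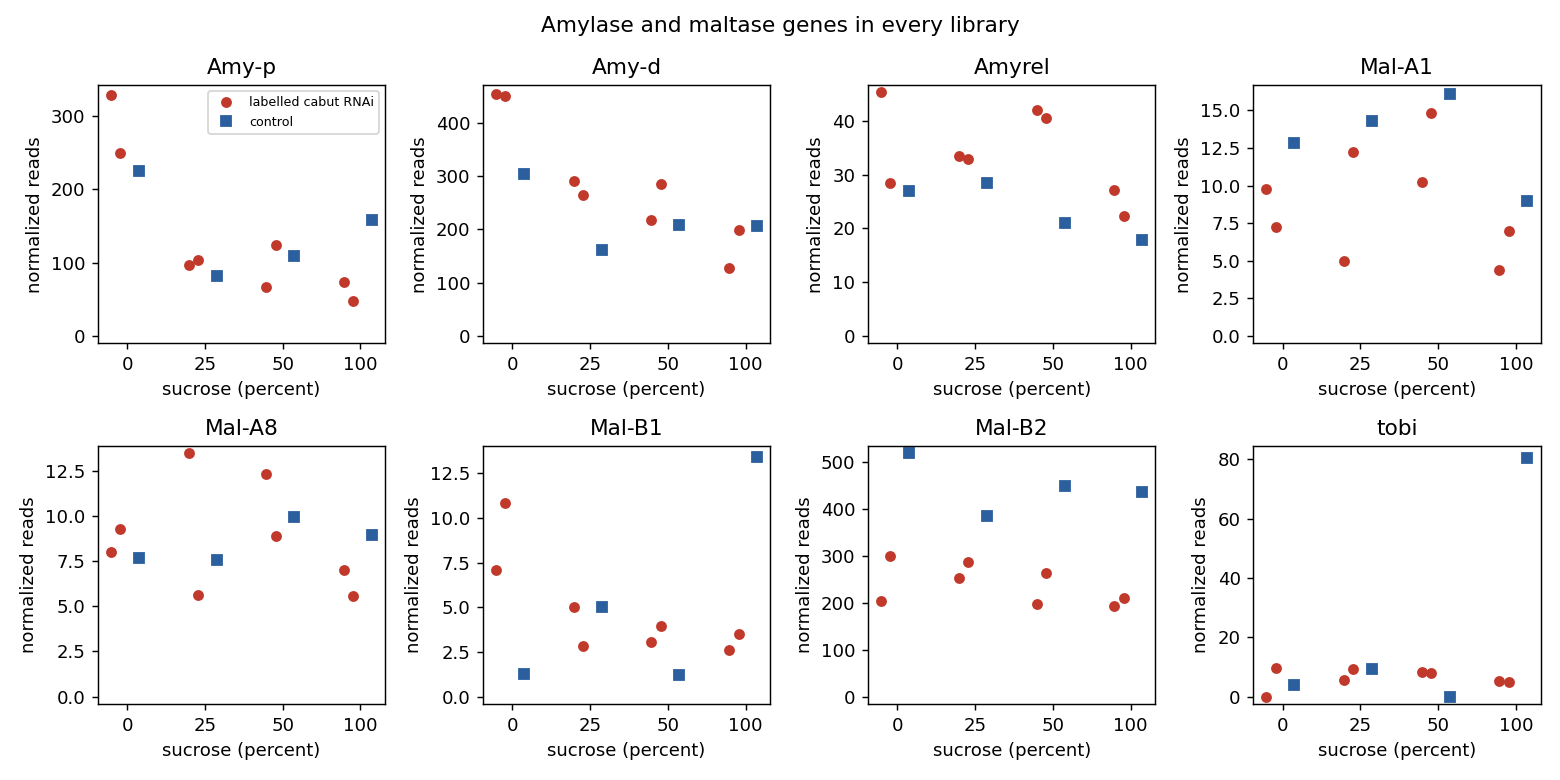
Normalized reads of the 8 genes in every library by sucrose concentration in percent (positions on the horizontal axis are categories), with RNAi-labelled libraries as red circles and controls as blue squares; each panel has its own vertical scale. Amy-p and Amy-d are highest at 0 percent, Mal-B2 separates the labels, and tobi has 1 high library, the control at 100 percent with 80.6 normalized reads.

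The comparison of sucrose with no sucrose asks which of these genes respond to the sugar. Both α-amylase copies were lower with sucrose, Amy-p 2.89-fold and Amy-d 1.87-fold, and no other tested member was called. Amy-p (transcript CG18730-RA, chromosome 2R, 13006211 to 13007808 in build dm3) encodes the proximal copy of α-amylase. In the RNAi-labelled libraries it held 329 and 249.5 normalized reads at 0 percent sucrose, 96.8 and 104 at 25 percent, 66.7 and 124 at 50 percent, and 73.6 and 48.1 at 100 percent. The controls held 225 at 0 percent, 82.2 at 25 percent, 109 at 50 percent and 159 at 100 percent. Every library with sucrose lay below every library without it, and the highest with sucrose was the control at 100 percent. Over both labels Amy-p averaged 96.0 ± 33.2 normalized reads with sucrose (SD, n = 9) and 268 ± 54.1 without (SD, n = 3). Its log2 fold change was -1.53 ± 0.23 (SE; limma adjusted p = 4.95e-04), and 0.2 percent of all genes tested had a lower value.

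Amy-d (CG17876-RA, chromosome 2R, 13012267 to 13013887) encodes the distal copy, which lies 4459 bases from Amy-p on the opposite strand. It held 455 and 450.1 normalized reads in the RNAi-labelled libraries at 0 percent sucrose, 291 and 266 at 25 percent, 218 and 285 at 50 percent, and 127 and 198 at 100 percent. In the controls it held 305 at 0 percent, 161 at 25 percent, 208 at 50 percent and 206 at 100 percent. Its groups did not overlap either, although the control at 0 percent was only slightly above the highest library with sucrose. The averages were 218 ± 55.1 normalized reads with sucrose (SD, n = 9) and 403 ± 85.3 without (SD, n = 3), and the log2 fold change was -0.91 ± 0.16 (SE; limma adjusted p = 0.00212).

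Amy-p and Amy-d were thus the members that fell with sucrose, 2 of the 6 tested. Among all genes tested 1.48 percent were called lower with sucrose and 0.672 percent higher. All 9 libraries with sucrose lay below all 3 without it for 1.5 percent of genes. The median log2 fold change of the 6 tested members was -0.17, against 0.01 over all genes. These 6 included tobi, with a log2 fold change of 1.13. The gene tobi reached the mean needed for testing only with the control at 100 percent sucrose, which held 80.6 normalized reads of it. Both the median and the count of members tested therefore rest in part on that library. Mal-A1, just above the mean needed, was tested in only 8 of the 12 fits that left out 1 library. The falls of Amy-p and Amy-d kept their calls when any 1 library was left out, with log2 fold changes of -1.80 to -1.32 for Amy-p and -1.02 to -0.81 for Amy-d. The call of Amy-p was lost with robust estimation in limma (adjusted p = 0.0824) and that of Amy-d without the intensity trend (adjusted p = 0.0829).

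The amylase copies are nearly identical in sequence, so that reads may have been divided between them in a way that does not show how much RNA each made. Summed, the pair had a log2 fold change of -1.11 ± 0.17 with sucrose (SE; limma adjusted p = 3.64e-04), which does not depend on that division. In whole heads, fewer cells of a type and less RNA per cell cannot be told apart, here or in any result below. Of 7 head fat body genes, fit, which encodes a satiety peptide of the fat body, was called with sucrose over both labels, 4.96-fold higher (limma adjusted p = 6.59e-05). It was 8.01-fold higher in the RNAi-labelled libraries (limma adjusted p = 2.36e-05), where Yp2 (limma adjusted p = 0.0198) and Yp3 (adjusted p = 0.0248) were called higher as well, and 1.90-fold higher in the controls, which did not pass the test (limma adjusted p = 0.211). The difference between these responses of fit did not pass the test either (limma adjusted p = 0.0630). The 7 genes of that list summed to between 35436 and 59758 normalized reads with sucrose in the RNAi-labelled libraries, against 26337 and 28011 without, and in the controls to between 53735 and 74479 with sucrose, against 75920 without. The sum was higher with sucrose in the RNAi-labelled libraries and lower with it in the controls. Under each label the genes of the list went both ways. In the RNAi-labelled libraries Lsp2 and to had log2 fold changes of -0.09 and -0.15 with sucrose. Yp1 and apolpp had 0.69 and 0.16 under that label, where fit, Yp2 and Yp3 were the genes called higher. In the controls no gene of the list was called. Yp1, Yp2, Yp3 and apolpp had log2 fold changes of -0.29, -0.33, -0.25 and -0.03 there. For fit, to and Lsp2 they were 0.93, 0.56 and 0.54. The part of fat body RNA in the amylase result was not tested.

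Amyrel (CG8221-RA, chromosome 2R, 12538597 to 12540204) encodes a diverged, secreted relative of α-amylase. It held 45.3 and 28.4 normalized reads in the RNAi-labelled libraries at 0 percent sucrose, 33.4 and 32.8 at 25 percent, 42.1 and 40.5 at 50 percent, and 27.2 and 22.3 at 100 percent. The controls held 26.9 at 0 percent, 28.5 at 25 percent, 21.1 at 50 percent and 17.9 at 100 percent. Libraries with and without sucrose overlapped over most of their range, and the lowest value of each label lay at 100 percent. The log2 fold change with sucrose was -0.19 ± 0.18 (SE; limma adjusted p = 0.797). At 100 percent alone it was -0.54 ± 0.22, which did not pass the threshold either (limma adjusted p = 0.288).

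No maltase gene passed the test with sucrose. Mal-B2 had a log2 fold change of -0.16 ± 0.13 (SE; limma adjusted p = 0.730) and Mal-A1 of -0.02 ± 0.31 (limma adjusted p = 0.989). Mal-A1 was read at only 4 to 17 reads per library. The other maltase genes of the cluster on chromosome 2R were mostly at the limit of detection: Mal-A3 and Mal-A4 had no read in any library, Mal-A7 had 1, Mal-A2 had 5 and Mal-A6 had 43 over all 12. Mal-A5, the exception, averaged 164 normalized reads, ranged only from 132 to 190, and had a log2 fold change of -0.10 ± 0.10 with sucrose (limma adjusted p = 0.783). The other 5 of these 6 genes were too low to be tested.

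By concentration, Amy-p was lower than at 0 percent at each step, with log2 fold changes of -1.48 ± 0.29 at 25 percent, -1.44 ± 0.29 at 50 percent and -1.67 ± 0.29 at 100 percent (SE; limma adjusted p = 0.0107, 0.0119 and 0.00175). Amy-d passed the test at 100 percent, at -1.19 ± 0.20 (limma adjusted p = 0.00113), with -0.77 at 25 percent and -0.75 at 50 percent (adjusted p = 0.0832 and 0.0697). Of all genes tested 0.672 percent were called lower at 25 percent, 0.992 percent at 50 percent and 1.51 percent at 100 percent. On the recovered reads, edgeR and DESeq2 called both copies at each of the 3 concentrations. With robust estimation in limma the calls of Amy-p at 25, 50 and 100 percent were lost (adjusted p = 0.280, 0.278 and 0.124). They were also lost in limma without the intensity trend (adjusted p = 0.207, 0.176 and 0.0730), as was that of Amy-d at 100 percent (0.0610). The call of Amy-p at 25 percent was lost without the first (adjusted p = 0.0991) or the second (0.0539) RNAi-labelled library at 0 percent and without the control at 25 percent (0.167). At 50 percent it was lost without the first (0.0879) or the second (0.0599) RNAi-labelled library at 0 percent, the first RNAi-labelled library at 50 percent (0.118) or the control at 50 percent (0.0605). Amy-d gained its call at both lower concentrations without the first RNAi-labelled library at 100 percent (0.0117 and 0.0111) or the control at 100 percent (0.0185 and 0.0155), and at 50 percent also without the control at 25 percent (0.04998).

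Within the 9 libraries with sucrose no gene showed a trend with concentration that passed the test (limma, 0 percent of 6552 genes), and 2 of the 6 tested members had an unadjusted p under 0.05, as had 5.01 percent of all genes. These were Amy-d, with a slope of -0.15 ± 0.07 on the log2 scale per 25 percentage points (SE), and Amyrel, with -0.18 ± 0.07. The slope of Amy-d was -0.05 without the first RNAi-labelled library at 100 percent sucrose and -0.24 without the control at 100 percent. Amy-p had -0.07 ± 0.09, and 0.05 without the second RNAi-labelled library at 100 percent sucrose. With edgeR 9 genes and with DESeq2 4 genes showed such a trend, none of them a member. Most of the difference of Amy-p therefore lay between 0 and 25 percent, and no further change was detected above that.

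The share of Amy-p within the amylase pair ranged from 19.5 to 43.6 percent between libraries. It depends directly on how reads were divided between the nearly identical copies. In the RNAi-labelled libraries, Amy-p made up 42.0 and 35.7 percent of the pair's reads at 0 percent sucrose, 25.0 and 28.2 percent at 25 percent, 23.5 and 30.4 percent at 50 percent, and 36.7 and 19.5 percent at 100 percent. The exact 95 percent binomial intervals of that lowest value, 15.5 to 24.1 percent, and of the highest value without sucrose under that label, 38.7 to 45.3 percent, did not meet. Such intervals cover counting error only. Both libraries were picked as extremes at different concentrations, so the gap is not a test of the spread between libraries. In the controls the share was 42.5 percent at 0 percent sucrose, 33.8 percent at 25 percent, 34.4 percent at 50 percent and 43.6 percent at 100 percent. The control at 100 percent was the one library with sucrose that lay above all libraries without it. Over both labels the share was 30.5 ± 7.42 percent with sucrose (SD, n = 9) and 40.0 ± 3.80 percent without (SD, n = 3), a difference of -9.50 percentage points that did not pass an exact two-sided permutation test (p = 0.0727). Without the control at 100 percent the difference was -11.1 points (exact permutation p = 0.0242), so the side of the threshold rests on that library. The share was 30.1 ± 7.56 percent in the RNAi-labelled libraries (SD, n = 8), against 38.6 ± 5.19 percent over the controls (SD, n = 4), with an exact permutation p of 0.0849. This measure was added after the values had been seen.

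**Figure D2:**
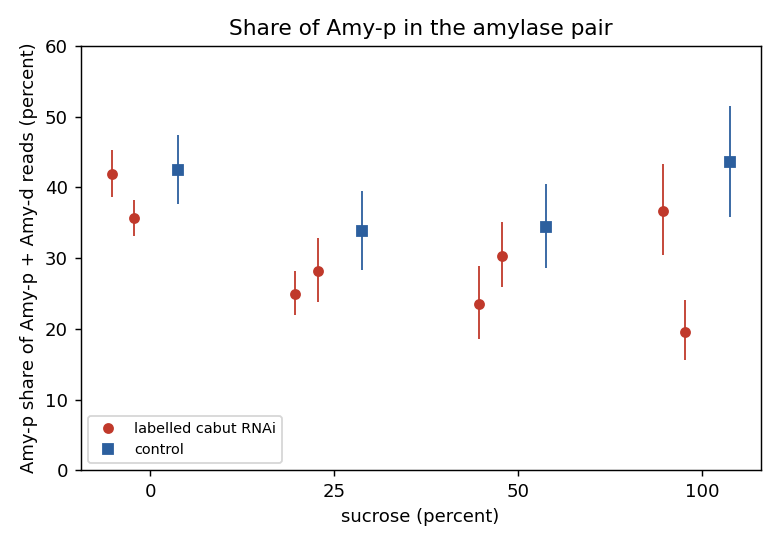
Share of Amy-p in the summed reads of Amy-p and Amy-d (percent) in every library by sucrose concentration (percent, positions are categories), with RNAi-labelled libraries as red circles and controls as blue squares; lines are exact 95 percent binomial intervals. The share lies between 35.7 and 42.5 percent without sucrose and between 19.5 and 43.6 percent with it.

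The comparison of genotypes asks which members differ between the RNAi-labelled libraries and the controls. Mal-B2 (CG14935-RA, chromosome 2L, 11849962 to 11852572), a maltase gene of the small cluster with Mal-B1, stood apart. In the RNAi-labelled libraries it held 203 and 299 normalized reads at 0 percent sucrose, 252 and 286 at 25 percent, 197 and 263 at 50 percent, and 194 and 211 at 100 percent. The controls held 519 at 0 percent, 386 at 25 percent, 449.7 at 50 percent and 436 at 100 percent. The lowest control was above the highest library of the other label. The averages were 238 ± 42.2 normalized reads in the RNAi-labelled libraries (SD, n = 8), against a control average of 448 ± 54.7 (SD, n = 4). The log2 fold change was -0.92 ± 0.12 (SE; limma adjusted p = 1.35e-05), which is 1.89-fold lower.

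Differences between the labels were common: 15.5 percent of all genes tested were called, 6.78 percent as higher and 8.71 percent as lower in the RNAi-labelled libraries. All 8 RNAi-labelled libraries lay below all 4 controls for 5.02 percent of genes, and for Mal-B2 alone among the members. The call of Mal-B2 held in every alternative that was run, with log2 fold changes of -1.05 to -0.85 when 1 library was left out, and 1.8 percent of all genes had a lower value. The 27 protease, lipase and lysozyme genes of the midgut list summed to 8.88 to 18.05 normalized reads in the RNAi-labelled libraries, against 28.5 to 154 in the controls. None of the 27 reached a mean of 10, so none was tested, and 10 of them, among them the trypsin genes epsilonTry, zetaTry and thetaTry, had no read anywhere. The genes behind the sums changed from control to control: mag gave 26.9 of the 46.1 normalized reads at 0 percent sucrose, and Jon65Aiii 44.8 and yip7 29.1 of the 154 at 100 percent. The trypsin gene iotaTry overlapped between the labels, at 0 to 14.95 normalized reads in the RNAi-labelled libraries, against 7.68 to 18.5 in the controls. The head fat body sum was 26337 to 59758 normalized reads in the RNAi-labelled libraries, against 53735 to 75920 in the controls, ranges that overlapped, with the yolk protein genes Yp1, Yp2 and Yp3 called lower and Lsp2 and to called higher. The part of either in the difference of Mal-B2 was not tested. Of the other marker lists, 2 of 9 photoreceptor genes were called higher (Rh5 and ninaC) and 2 lower (Rh3 and Rh4) in the RNAi-labelled libraries, 2 of 3 tested muscle genes higher (Mhc and wupA) and 2 of 3 tested neuron genes lower (Syt1 and nSyb), and none of these was called with sucrose.

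**Figure D3:**
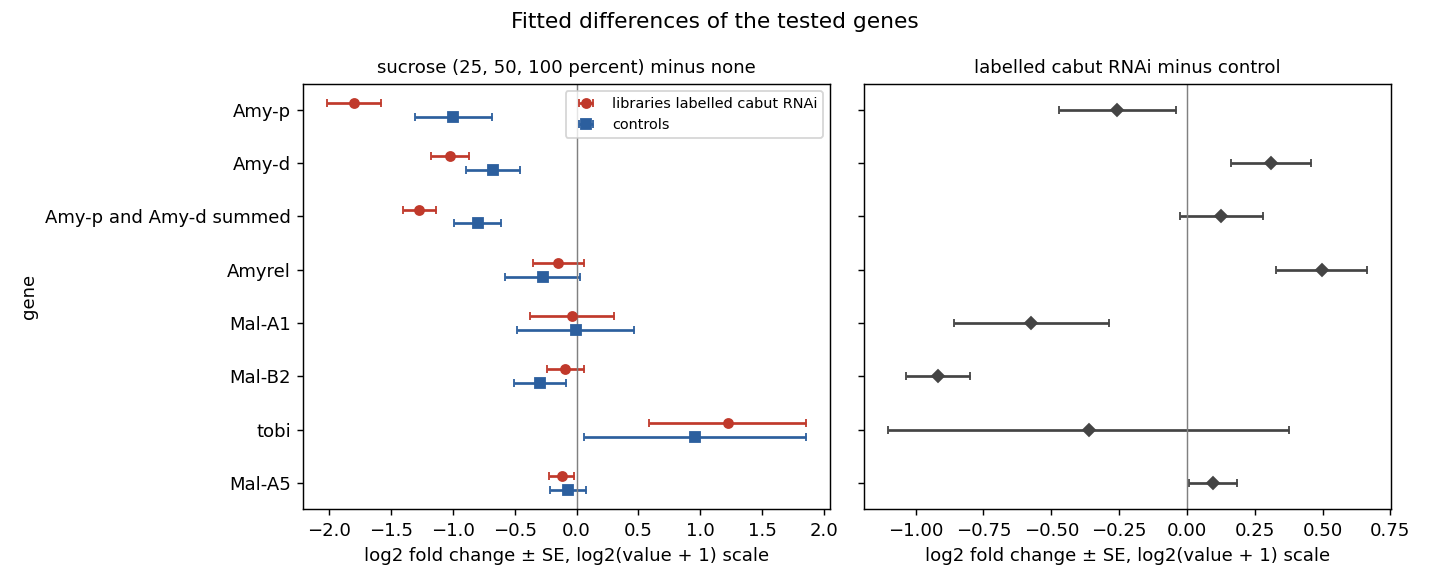
Fitted log2 fold changes with standard errors on the log2(value + 1) scale for the 6 tested members, the summed amylase pair and Mal-A5. Left, sucrose minus none in the RNAi-labelled libraries (red circles) and in the controls (blue squares); right, RNAi-labelled libraries minus controls. Amy-p and Amy-d are below 0 under both labels on the left, and Mal-B2 is the farthest from 0 on the right, at -0.92.

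Amyrel was 1.41-fold higher in the RNAi-labelled libraries, at 34.0 ± 8.04 normalized reads (SD, n = 8), against 23.6 ± 4.97 in the controls (SD, n = 4), with overlapping ranges. Its limma adjusted p of 0.0498 was at the threshold. The call was lost when any of 10 of the 12 libraries was left out, the highest adjusted p being 0.259, without the control at 50 percent sucrose, and was kept without the second RNAi-labelled library at 0 percent (0.0258) or the control at 25 percent (0.0469). It was also lost with edgeR (adjusted p = 0.105) and DESeq2 (adjusted p = 0.226) on the recovered reads. Only 8 to 67 reads per library stood behind these values.

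Amy-d averaged 286 ± 116 normalized reads in the RNAi-labelled libraries (SD, n = 8), against 220.0 ± 60.5 over the controls (SD, n = 4), a log2 fold change of 0.31 ± 0.15 (SE; limma adjusted p = 0.182). Without the control at 100 percent sucrose it was 0.54 and passed the test (limma adjusted p = 0.0132), as it did without the first RNAi-labelled library at 100 percent (0.42, adjusted p = 0.0198). Amy-p had a log2 fold change of -0.26 ± 0.22 (limma adjusted p = 0.489), and of 0.12 without the control at 100 percent, so no direction is given for it. The summed pair had 0.13 ± 0.15 (limma adjusted p = 0.655). The control at 100 percent was the shallowest library and held the highest midgut sum, 154 normalized reads from 69 reads over 12 of the 27 genes, against 46.1, 40.3 and 28.5 in the other controls at 0, 25 and 50 percent. Mal-A1 had -0.57 ± 0.29 (limma adjusted p = 0.205), with 4.38 to 14.8 normalized reads in the RNAi-labelled libraries and 8.95 to 16.1 in the controls.

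**Figure D4:**
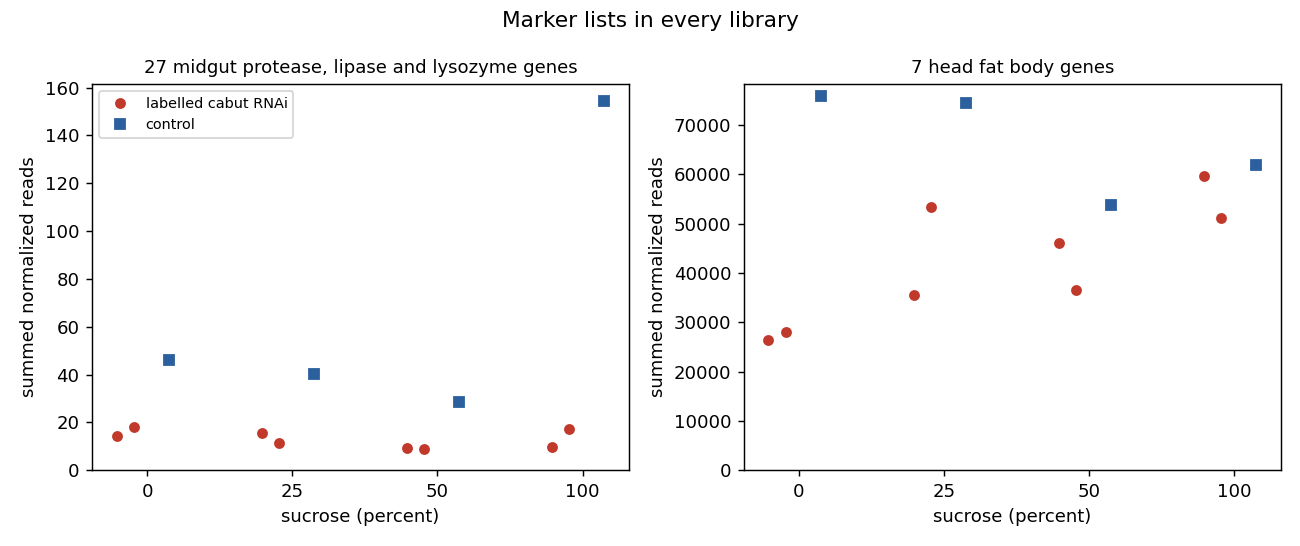
Summed normalized reads of 27 midgut protease, lipase and lysozyme genes (left) and of 7 head fat body genes (right) in every library by sucrose concentration (percent, positions are categories), with RNAi-labelled libraries as red circles and controls as blue squares. The midgut sum is 8.88 to 18.05 in the RNAi-labelled libraries and 28.5 to 154 in the controls, highest in the control at 100 percent.

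The response to sucrose was also fitted within each label, and the difference between the responses was tested. In the RNAi-labelled libraries Amy-p had a log2 fold change of -1.80 ± 0.22 (SE; limma adjusted p = 7.96e-04) and Amy-d of -1.02 ± 0.15 (adjusted p = 0.00369), the 2 members called lower where 1.37 percent of all genes were. The call of Amy-d there was lost without the first (adjusted p = 0.0792) or the second (0.0706) of the 2 libraries at 0 percent. In the controls, with 1 library at each concentration and the spread taken from the other label, Amy-p had -0.996 ± 0.310 (limma adjusted p = 0.159) and Amy-d -0.68 ± 0.22 (adjusted p = 0.178). No member was called in the controls, where 1.16 percent of all genes were, although all 3 controls with sucrose lay below the control at 0 percent for both copies. The difference between the responses was -0.80 ± 0.38 for Amy-p (limma adjusted p = 0.486) and -0.35 ± 0.27 for Amy-d (adjusted p = 0.704). Without the control at 100 percent sucrose these were -0.33 for Amy-p and -0.05 for Amy-d. With all libraries the difference was called for no member and for 0.229 percent of all genes, so no difference between the labels in the response of the amylase genes was detectable with single controls. Mal-B2 had -0.09 ± 0.15 in the RNAi-labelled libraries and -0.29 ± 0.21 in the controls, and the difference of 0.20 ± 0.26 did not pass the test (limma adjusted p = 0.834).

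The gene tobi (CG11909-RA, chromosome 3R, 21170578 to 21172634), named as a target of brain insulin, encodes a maltase-like enzyme whose RNA in flies is known to depend on insulin-like and adipokinetic hormone signals. It was scarce, with no read in the first RNAi-labelled library at 0 percent sucrose and none in the control at 50 percent, where a count of 0 allows up to 2.67 and 3.72 normalized reads, counting 3 reads as the limit. The other RNAi-labelled libraries held 4.88 to 9.80 normalized reads, and the controls held 3.84 at 0 percent and 9.23 at 25 percent. The control at 100 percent held 80.6 normalized reads, from 36 reads. Neither sucrose (1.13 ± 0.81 on the log2 scale, SE, limma adjusted p = 0.671) nor the label (-0.36 ± 0.74, adjusted p = 0.814) gave a difference that passed the test. Both values moved with single libraries: the sucrose value was 0.18 without the first RNAi-labelled library at 0 percent and 2.02 without the second, and the label value was -0.01 without that first library and -1.54 without the control at 50 percent. Without the control at 100 percent the mean of tobi fell under 10 and it was not tested.

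The untested members had means under 10, although Mal-A8 had 124 reads over all libraries, against 119 for tobi. Mal-A8 (CG8690-RA, chromosome 2R, 4359470 to 4361448) ranged from 5.58 to 13.5 normalized reads and Mal-B1 (CG14934-RA, chromosome 2L, 11847231 to 11849115) from 1.24 to 13.4. The highest value of Mal-B1 was again in the control at 100 percent sucrose, from 6 reads. Mal-B1 lies 847 bases from Mal-B2, and it held 2.63 to 10.8 normalized reads in the RNAi-labelled libraries and 1.24 to 13.4 in the controls, with no separation of the labels.

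Genes of sugar handling and sugar signalling were set beside the members from lists chosen by function, with earlier results of these data known. Of 9 sugar transport and trehalase genes 3 were tested and none passed the test with sucrose over the 3 concentrations together. The trehalose transporter gene Tret1-1 had a log2 fold change of 0.32 ± 0.08 in that comparison (SE; limma adjusted p = 0.0570). It was called at 100 percent sucrose alone, at 0.41 ± 0.10 (limma adjusted p = 0.0406), and was 1.22-fold higher in the RNAi-labelled libraries (limma adjusted p = 0.0138). With sucrose 0.672 percent of all genes tested were called higher. Of 15 regulators of sugar and starvation responses 13 were tested, and 2 rose with sucrose. They were sug, with 114 ± 32.7 normalized reads with sucrose (SD, n = 9) and 57.2 ± 21.8 without (SD, n = 3), a 1.997-fold rise (limma adjusted p = 0.00385), and daw, with 53.6 ± 10.6 normalized reads with sucrose and 33.2 ± 4.42 without, a 1.58-fold rise (limma adjusted p = 0.0185). Within the RNAi-labelled libraries sug was 2.66-fold higher with sucrose (limma adjusted p = 2.16e-04). In the controls it held 83.1, 103 and 91.8 normalized reads at 25, 50 and 100 percent, against 82.0 without sucrose, a log2 fold change of 0.17 ± 0.20 (limma adjusted p = 0.771). The difference between these responses was 1.25 ± 0.25 and did not pass the test (limma adjusted p = 0.0818). For daw the log2 fold change was 0.66 under each label and was called under neither (limma adjusted p = 0.127 in the RNAi-labelled libraries and 0.284 in the controls). Between the labels 1 of the 13 tested regulators was called higher and 2 lower in the RNAi-labelled libraries. Over all genes tested 6.78 percent were called higher and 8.71 percent lower there. The insulin-like peptide gene Ilp3 was higher (log2 fold change 0.71 ± 0.18, limma adjusted p = 0.00841). The insulin receptor gene InR (-0.62 ± 0.18, limma adjusted p = 0.0257) and the Mondo partner gene bigmax (-0.35 ± 0.11, adjusted p = 0.0380) were lower.

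The genes most like each member were taken as the 3 with the highest Pearson correlation over the same 12 libraries, which share depth and labels. Genes picked in this way tend to share the calls of their member. Their calls below, from the same libraries, follow in part from the choice and are not separate evidence. Amy-p varied most like CG31075 (r = 0.92), CROT (r = 0.91) and Reg-2 (r = 0.90), and all 3 were lower with sucrose (limma), with log2 fold changes of -1.53 ± 0.21, -1.21 ± 0.12 and -1.13 ± 0.18 (SE). Its correlation with Amy-d was lower, at 0.78. Among the genes most like Amy-d were CG7322 (r = 0.91) and CG5966 (r = 0.89). Both were lower with sucrose (limma), CG7322 at -0.52 ± 0.13 and CG5966 at -2.67 ± 0.16 (SE). Mal-B2 varied most like CG8360 (r = 0.96), CG42369 (r = 0.95) and CG11841 (r = 0.94), each called lower in the RNAi-labelled libraries (limma), at -0.65 ± 0.10, -0.57 ± 0.08 and -1.33 ± 0.15. None of these 3 lies within 10 kb of Mal-B2. Amyrel was nearest to NT5E-2 (r = 0.94), CG13606 and EMC6, Mal-A1 to Phb1 (r = 0.87), CG2604 and GM130, and tobi to mRpS35 (r = 0.86), Pp4-19C and ERp60, all of them genes not called with sucrose.

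Neighbouring genes within 10 kb were looked at in the table's coordinates. Mal-A1 (CG8696-RA, chromosome 2R, 4337166 to 4339404) lies 2490 bases from Cyp4e2, a cytochrome P450 gene that was lower with sucrose (log2 fold change -0.85, limma adjusted p = 7.40e-05), and overlaps Cyp4e1 in the table. Of the 3 tested genes near Mal-B2, CG31704, at 8950 bases, was lower in the RNAi-labelled libraries (-1.10 ± 0.20, SE, limma adjusted p = 6.66e-04). CG42325, which overlaps Mal-B2, had 0.59 ± 0.27 (limma adjusted p = 0.168) at a mean of 17.4 normalized reads. Around the amylase pair, CG15611, 4345 bases from Amy-p, had a log2 fold change of -0.07 with sucrose (limma adjusted p = 0.949), and CG11400, 7775 bases from Amy-d, had -0.21 with sucrose (adjusted p = 0.611) and was lower in the RNAi-labelled libraries (-0.52 ± 0.12, adjusted p = 0.00431). Picot, 2616 bases from Amyrel, was higher in the RNAi-labelled libraries (0.30 ± 0.10, limma adjusted p = 0.0474).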

How the data were processed

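RNA from fly heads was fragmented before poly(A) selection, per the labels' protocols, and reads were processed with Bowtie and TopHat and build dm3, per the submitters' processing notes. The sources used here do not give a version, how reads were counted and normalized, or whether strand was used, so overlapping and antisense genes could not be told apart. The unit is a signal: the authors deposited normalized values for 21081 transcript rows, and 100 percent of them were whole multiples of 1 step per library (tolerance 0.01), which gave back the reads. Rows were joined to genes by CG number, of which 13536 of 14010 matched a symbol, and exon lengths came from an annotation of another release. Genes with a mean of at least 10 were tested in R 4.3.3 with limma 3.58.1, with an intensity trend, on log2(value + 1). This scale understates changes of low genes. Label and concentration were fitted together over 12 libraries. The dose trend used 9 libraries and the response within cabut RNAi 8, and the controls' response and the difference came from 8 group means, in which single controls are assumed to vary like the other groups. On the recovered reads edgeR 4.0.16 called 180 genes and DESeq2 1.42.0 153 with sucrose, against 141 with limma. Fits were tested on simulated data. No replicate pair matched within counting noise (chi-square 2.89 to 6.25 per degree of freedom). The members and lists were chosen with earlier results of these data known. Genes named were the members, the 3 genes most correlated with each tested one (1 of them is not reported here), and up to 4 called genes per list and direction. Neighbours within 10 kb and the share of Amy-p were added after the values were seen. Alternatives were pseudocounts of 0.5 and 5, a minimum mean of 50 or none, quantile or median-of-ratios scaling, robust limma or limma without trend, leaving out each library, a replicate block, edgeR, DESeq2, summed transcript rows, the amylase pair summed, 100 against 25 percent as a factor, and no concentration term.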

Additional observations from a re-analysis of the deposited data

Results flagged for a closer look

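The control library at 100 percent sucrose held 80.6 normalized reads of tobi, against 0 to 9.23 in the other 3 controls. Its gap to the next control took up 0.885 of the range of the 4 controls, above Dixon's critical value of 0.829 for 4 samples. Dixon's rule takes the values as samples of 1 population, but each control was at another sucrose concentration. An outlying library and an effect of 100 percent sucrose in controls can therefore not be told apart. Where the values do come from 1 population, chance flags about 1 group in 20, and 16 groups were looked at. The 8 RNAi-labelled libraries, 0 to 9.80 normalized reads, had no such value. The same control held the highest summed level of midgut digestive enzyme genes, 154 normalized reads, the highest value of Mal-B1, 13.4, and the fewest reads of all libraries, 511487. Whether these are linked was not tested.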

How the results depend on the processing

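With sucrose 2 members were called, and 1 without the intensity trend, with robust estimation or with the amylase pair summed. At 25 and at 50 percent 1 was called, against 0 without the trend or with robust estimation, 2 with edgeR and with DESeq2, and 0 to 2 when 1 library was left out. At 100 percent 2 were called, against 0 without the trend and 1 with robust estimation or the pair summed. Between the labels 2 were called, and 1 with pseudocounts of 0.5 or 5, no filter, a minimum mean of 50, no trend, robust estimation, edgeR, DESeq2, summed rows or no concentration term, and 1 to 2 when 1 library was left out; the member lost was Amyrel. Within the RNAi-labelled libraries 2 were called, against 0 without the filter and 1 without the trend or with the pair summed. The members called there were not always Amy-p and Amy-d when 1 library was left out. Without the first or the second library at 0 percent Amy-d lost its call, and without the second a member other than the amylase pair was called. Leaving out 1 library also turned the sign of values that no test had called: Mal-A1 with sucrose (-0.125 to 0.0892), the slope of Amy-p (-0.223 to 0.0514), Amy-p between labels (-0.46 to 0.12), Mal-B2 with sucrose in the RNAi-labelled libraries (-0.37 to 0.18) and its difference between labels (-0.0755 to 0.478). The causes of these changes of sign were not tested. The range of Mal-A1 covers only the 8 of 12 fits in which it reached the mean needed for testing. Single-gene values were followed for every tested member with sucrose and between the labels, and for selected members in the other comparisons. Of the values followed, 682 kept direction and side of the threshold, 40 lost a call, 11 gained one and 8 changed sign. Calls gained by members not followed are outside these counts.

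The number of all genes called with sucrose was 141, and 59 without the trend, and 87 to 175 when 1 library was left out. It was 53 at 25 percent, 81 at 50 percent and 154 at 100 percent, against 17, 12 and 56 without the trend. In the RNAi-labelled libraries it was 129, against 34 without the trend, 81 without the filter and 40 without the first library at 0 percent. Scaling moved no median by as much as 0.03. Replicate numbers did not pair the libraries (correlations of deviations from -0.11 to 0.14), and with the replicate number as a block Amy-p had -1.53 with sucrose (limma adjusted p = 5.75e-04) and no count of called members changed. Without the control at 0 percent the response of the controls could not be fitted. Depth limits Mal-A1, Mal-A8, Mal-B1 and tobi, at 0 to 36 reads per library.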
